A study of Mus musculus with 6 samples.

Results

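The late cornified envelope (*Lce*) genes described here are 10 gene names of the mouse epidermal differentiation complex, 9 of the *Lce1* group (*Lce1a2*, *Lce1b*, *Lce1c*, *Lce1e*, *Lce1h*, *Lce1i*, *Lce1k*, *Lce1l* and *Lce1m*) and *Lce3f* of the *Lce3* group. They were picked by name from the 55367 gene names of the count table, which holds 11 more *Lce* names, and all 10 passed the filter on low counts that left 14916 genes for testing. RNA was sequenced from primary keratinocytes, epidermal cells taken from the skin of pups aged 2 days and grown on collagen in medium with 0.05 mM calcium chloride, a low-calcium condition. All cells carried *Ppp1r13l* flox/flox, with loxP sites around exon 8 of the gene that encodes iASPP, together with a tamoxifen-inducible Cre-ERT expressed from the ROSA26 locus, on a mixed strain background. Cells of 3 batches were each divided into an iASPP-KO culture, given tamoxifen, and an iASPP-WT culture without it. The medium was replaced after 24 h and the cells were kept for 4 more days, which gave 6 libraries in 3 same-batch pairs, and the number of pups behind a batch is not given in the sources used here. The comparison asks which genes depend on iASPP in keratinocytes. Since the control cultures received no tamoxifen, the drug and the deletion cannot be told apart.

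The cornified envelope is the crosslinked protein shell that replaces the plasma membrane of keratinocytes as they become the dead outer layer of the skin. LCE proteins are small, rich in cysteine, glycine and serine, and are added late in this process as substrates of transglutaminases, after scaffold proteins such as involucrin and envoplakin. Their genes lie side by side in the epidermal differentiation complex with the loricrin, filaggrin, *Sprr* and *S100* genes. In human skin, the *LCE1* group belongs to normal epidermis, while the *LCE3* group is known for its induction in wounded and psoriatic skin.

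In the count table, on the mouse genome GRCm38, the 21 *Lce* names lay on chromosome 3 within 399 kb (chr3:92620081-93019060). No exon of another gene in the count table overlapped those of the members. In the longest GENCODE vM21 transcript of each member there were 2 exons, with the whole coding sequence in the second exon. The 70 bases before the RefSeq start of 5 members are shown on the gene's strand because they set side by side genes with similar promoters whose fitted log2 fold changes lay on opposite sides of 0, none past the adjusted threshold. Capitals mark ATAAAA, which resembles the core promoter element bound by TBP.

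*Lce1a2* (chr3:92670316-92670385, minus strand): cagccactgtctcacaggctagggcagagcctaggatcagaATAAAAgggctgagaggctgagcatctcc
*Lce1i* (chr3:92778900-92778969, minus strand): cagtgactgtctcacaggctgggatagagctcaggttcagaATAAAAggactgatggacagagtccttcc
*Lce1e* (chr3:92709075-92709144, minus strand): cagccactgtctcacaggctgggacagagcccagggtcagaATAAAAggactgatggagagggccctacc
*Lce1m* (chr3:93019062-93019131, minus strand): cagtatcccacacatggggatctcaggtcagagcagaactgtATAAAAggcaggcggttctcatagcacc
*Lce3f* (chr3:92992147-92992216, plus strand): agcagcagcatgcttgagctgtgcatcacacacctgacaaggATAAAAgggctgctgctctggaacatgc

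The first 3 of these read almost alike, while those of *Lce1m* and *Lce3f* share little with them beyond the capitals. Position by position and without gaps, *Lce1e* was identical to *Lce1i* at 87.1% of the 70 bases and to *Lce1a2* at 78.6%, but to *Lce1m* at 31.4%. Among *Lce1a2*, *Lce1b*, *Lce1c*, *Lce1e*, *Lce1h* and *Lce1i* the identity ran from 52.9% to 90% over 15 pairs. In the 30 pairs with at least 1 of *Lce1k*, *Lce1l*, *Lce1m* and *Lce3f* it ran from 12.9% to 44.3%.

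All 10 members had ATAAAA on the gene's strand in these 70 bases, as did 8 of 10 other *Lce* genes with an entry and 3.39% of the 32851 promoters of the RefSeq table (assembly GRCm38.p6). Its first base lay 28 to 31 bases before the start. The stretch TCTCACAGG, also on the gene's strand, was found in 5 members (*Lce1a2*, *Lce1b*, *Lce1e*, *Lce1h* and *Lce1i*) in 2 of the other *Lce* genes and in 0.0609% of all promoters. Both were chosen after looking at the sequences. On either strand of the 250 bases before the start, TGANTCA, the motif of AP-1 factors such as JunB, was found in no member. The same held for CATG, 6 bases of any kind and CATG, a strict form of the core of p53-family sites. The shares of all promoters with these motifs were 6.75% and 0.49%, so few of any 10 genes would have them. Looser forms of the motifs and sites further away were not searched.

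The coding sequences repeat within and between the genes, which bears on how reads of 42 bases can be assigned. A stretch of the length of 1 read from the coding part of *Lce1e* and from that of *Lce3f* shows this, with cysteine codons in capitals.

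*Lce1e* (chr3:92707673-92707714, minus strand): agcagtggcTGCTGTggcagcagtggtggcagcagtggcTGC
*Lce3f* (chr3:92993048-92993089, plus strand): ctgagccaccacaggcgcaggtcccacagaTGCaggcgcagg

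The stretch of *Lce1e*, with 3 cysteine codons among 14, occurred in transcripts of 10 *Lce1* genes, 5 of them members, and of *Gm38119*, which has no *Lce* name. The stretch of *Lce3f* occurred in those of all 6 *Lce3* genes. Reads that aligned equally well to several places were not counted, so such stretches were left without counts and each value rests on the rest of the transcript. Shared stretches made up 48.8% of all 42-base windows of the *Lce3f* transcript, 37.5% for *Lce1i*, 30.4% for *Lce1e*, 22.8% for *Lce1a2* and 0% for *Lce1m*, whose examined transcript of 874 bases covers only part of the 949 bases over which its reads were counted. The values of the members with shared stretches carry some uncertainty about which gene a read with a base difference came from. Cysteine took 20.8% to 23.0% of the codons in the *Lce1* members other than *Lce1m*, 17.0% in *Lce1m* and 16.3% in *Lce3f*. Glycine codons were most frequent in *Lce1m*, at 26.9%, and least frequent in *Lce3f*, at 12.2%.

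The libraries held 20202517 to 25157117 counts, and a count of 3, taken as the limit that a count of 0 allows, corresponds to 0.123 to 0.141 CPM (counts per 1000000 counts of the library, scaled by TMM). The targeted gene, *Ppp1r13l*, went with the labels: it had 14.3, 17.7 and 5.91 CPM in iASPP-KO batches 1, 2 and 3, and 32.7, 45.1 and 21.0 CPM in iASPP-WT. It was significantly lower in iASPP-KO cells (log2 fold change −1.45, SE 0.18, adjusted p = 0.00296, edgeR's quasi-likelihood F test, Benjamini-Hochberg adjusted). Batch 3 stood apart from the others in its fibroblast markers, and batch 2 in its melanocyte markers. The 8 fibroblast markers, all tested and none at 0 in all libraries, summed to 475 CPM in iASPP-KO and 692 CPM in iASPP-WT of batch 3, against 38.9 to 53.7 CPM in batches 1 and 2. The 10 keratinocyte markers summed to 31177 to 38935 CPM in all libraries. The 7 melanocyte markers summed to 431 CPM in iASPP-KO and 367 CPM in iASPP-WT of batch 2, against 894 to 1126 CPM in batches 1 and 3. The 14 genes of the spinous layer summed to 1592 and 2036 CPM in batch 3 against 3783 to 4888 CPM in the others. The 13 genes of the granular layer summed to 3311 and 3767 CPM in batch 3 against 6461 to 13513 CPM. Whether these differences had a part in the *Lce* values of batch 2 or batch 3 was not tested, and values without batch 3 are given beside the results. In bulk RNA, fewer differentiated cells and less *Lce* RNA per cell cannot be told apart.

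All 10 members were expressed at low levels in these low-calcium cultures. Per kilobase of exons and averaged over the 6 libraries, *Lce1a2* stood highest, at 37.6 ± 11.9 CPM per kb (SD, n = 6). *Lce1e* at 11.99 ± 8.50 and *Lce1m* at 11.6 ± 8.81 CPM per kb came next. The other 7 members, in the order *Lce3f*, *Lce1k*, *Lce1h*, *Lce1b*, *Lce1c*, *Lce1l* and *Lce1i*, had means between 4.43 and 5.86 CPM per kb. Of the 9 pairs of neighbours in this order, only *Lce1a2* and *Lce1e* were further apart than the larger of their SDs. Even their ranges over the libraries overlapped, although *Lce1a2* stood above *Lce1e* within every library. By this measure, which does not pair the genes within a library, the rest of the order is not resolved. The order of the other neighbours within single libraries was not examined. The exon length was not reduced for stretches shared between genes, from 0% of the examined windows of *Lce1m* to 48.8% of those of *Lce3f*. Values of genes with more shared stretches are therefore lowered more, by an amount not measured here.

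None of the 10 members differed significantly between iASPP-KO and iASPP-WT cells in the comparison of all 3 batches. Within that, the family did not move one way: *Lce1e*, *Lce1m* and *Lce3f* had higher values in iASPP-KO cells in each batch, *Lce1c*, *Lce1h* and *Lce1i* had lower values in each batch, and *Lce1a2*, *Lce1b*, *Lce1k* and *Lce1l* were lower in batches 1 and 3 but not in batch 2. By edgeR's quasi-likelihood F test and Benjamini-Hochberg adjustment, 0 members were called in either direction, against 2.17% of all tested genes called higher and 1.95% called lower, and the adjusted p of the members ran from 0.168 to 0.633. At an unadjusted p under 0.05, 3 members were higher and 2 lower (8.66% and 8.09% of all tested genes), and DESeq2 also called 0 members (3.69% and 3.16% of its tested genes), with 3 higher and 2 lower at an unadjusted p under 0.05. The 3 members higher and 3 lower in every batch stand beside 19.5% and 19.6% of all tested genes. In no member were all iASPP-KO libraries above or all below the iASPP-WT libraries (5.26% and 5.46% of all tested genes). The median log2 fold change was −0.55 over the members and 0.01 over all tested genes, with 3 members above 0 and 7 below (50.6% and 49.4% of all tested genes).

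The fitted changes of the members had a larger median SE than those of the tested genes within their range of levels. The median SE of the log2 fold change was 0.44 for the members. It was 0.24 for the 4970 tested genes with a mean between 3.12 and 26.9 CPM, the range of the members, and 0.21 for all tested genes. Most members lay near the low end of that range, so the genes compared were not matched in level. Whether the members' SEs were large for their own level was not tested. The batches differed in the same way across the family. The log2 ratio of iASPP-KO to iASPP-WT was lowest in batch 3 for 8 of 10 members and highest in batch 2 for 9 of 10, against 34.0% and 30.7% of all tested genes. Of the other 10 tested *Lce* names, 9 had their lowest ratio in batch 3 and 7 their highest in batch 2.

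**Figure D1:**
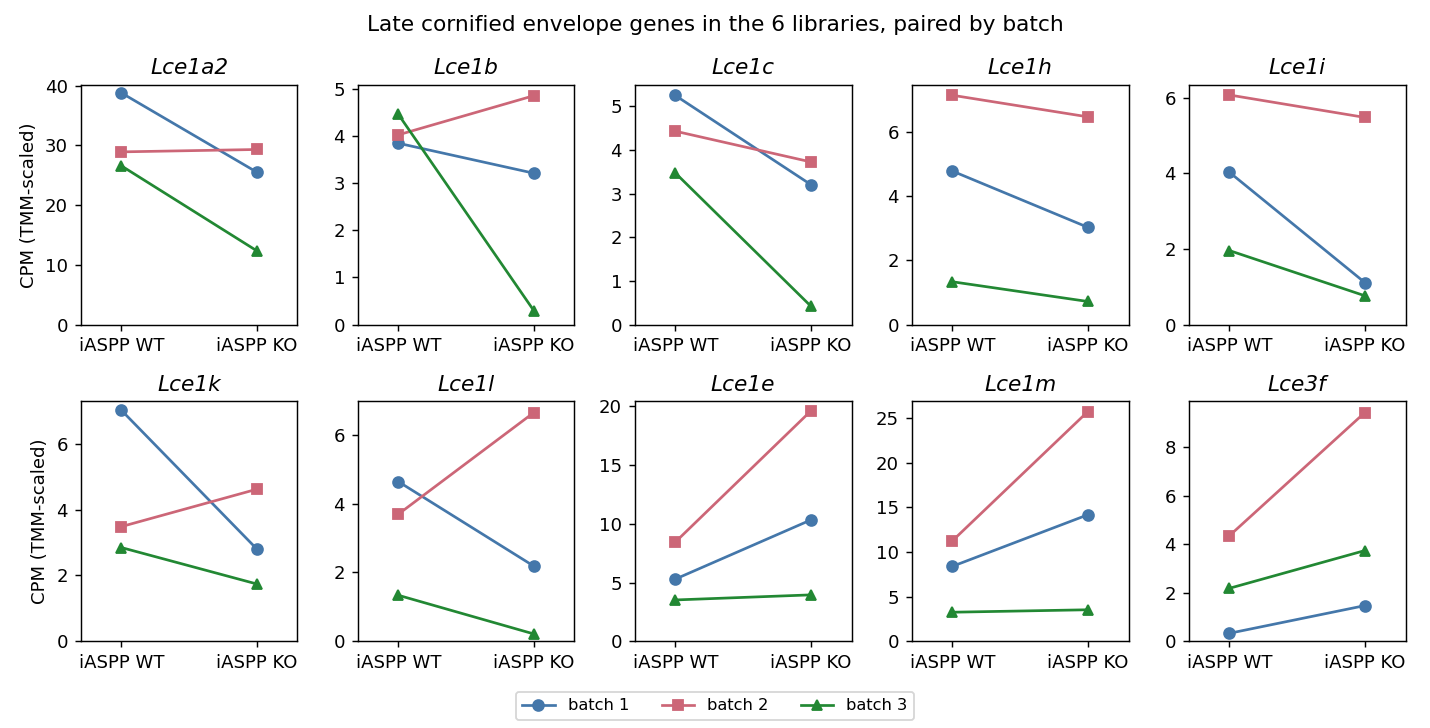
Level of each *Lce* member in TMM-scaled CPM (vertical axes, each from 0) in iASPP-WT and iASPP-KO libraries, with a line for each of the 3 batches. The lines of *Lce1e*, *Lce1m* and *Lce3f* slope up in all 3 batches and those of *Lce1c*, *Lce1h* and *Lce1i* slope down in all 3, while those of *Lce1a2*, *Lce1b*, *Lce1k* and *Lce1l* slope up in batch 2 and down in the others.

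*Lce1e* (chr3:92707401-92709074, minus strand) was the member with the smallest p. It had 10.3, 19.6 and 3.95 CPM in iASPP-KO batches 1, 2 and 3 (232, 437 and 93 counts) and 5.29, 8.45 and 3.52 CPM in iASPP-WT (113, 206 and 79 counts). The iASPP-KO library was the higher of its pair in each batch, with a ratio of 1.94 and 2.31 in batches 1 and 2 and 1.12 in batch 3, but the groups overlapped because both libraries of batch 3 lay below the rest. The means were 11.3 ± 7.88 CPM in iASPP-KO and 5.75 ± 2.50 CPM in iASPP-WT (SD, n = 3). The fitted fold was 1.75 (95% interval 1.14 to 2.69, for this gene alone), with a log2 fold change of 0.81, SE 0.28 and adjusted p = 0.168 by edgeR's quasi-likelihood F test.

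*Lce1m* (chr3:93017810-93019060, minus strand), the *Lce1* gene that lies apart from the others on the far side of the *Lce3* genes, gave nearly the same picture. Its values were 14.2, 25.7 and 3.53 CPM in iASPP-KO batches 1, 2 and 3 (318, 573 and 83 counts) and 8.39, 11.2 and 3.25 CPM in iASPP-WT (179, 274 and 73 counts). Batch 2 was the highest and batch 3 the lowest in both groups, and the pair of batch 3 was nearly level, with a ratio of 1.08 against 1.68 and 2.28 in batches 1 and 2. The fitted fold was 1.65 (95% interval 1.11 to 2.45), with a log2 fold change of 0.72, SE 0.26 and adjusted p = 0.181. Across the 6 libraries the log2 CPM of *Lce1m* and *Lce1e* correlated at r = 0.97, as a description over libraries that share batches.

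*Lce3f* (chr3:92992226-92993426, plus strand) had the highest fitted log2 fold change of the members. It had 1.47, 9.43 and 3.74 CPM in iASPP-KO batches 1, 2 and 3 (33, 210 and 88 counts) and 0.328, 4.35 and 2.18 CPM in iASPP-WT (7, 106 and 49 counts). The batches lay in another order than for the *Lce1* genes, with batch 1 lowest in both groups, and the iASPP-KO library was the higher of its pair in each batch. The ratio was 3.75 in batch 1, where the 7 counts of the iASPP-WT library have an exact 95% Poisson interval of 2.81 to 14.4 that covers counting error only, and 2.15 and 1.69 in batches 2 and 3. The fitted fold was 2.38 (95% interval 1.22 to 4.66), with a log2 fold change of 1.25, SE 0.44 and adjusted p = 0.169.

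The calls for these 3 genes turned on batch 3. Without it, and with 2 pairs left, *Lce1e* (log2 fold change 1.09, adjusted p = 0.00182), *Lce1m* (0.98, adjusted p = 0.00136) and *Lce3f* (1.50, adjusted p = 0.0413) were significantly higher in iASPP-KO cells by edgeR's quasi-likelihood F test and Benjamini-Hochberg adjustment, and no member was significantly lower. The share of all tested genes called also rose without batch 3, to 5.2% higher and 4.34% lower. Without batch 1 or without batch 2, 0 members were called.

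**Figure D2:**
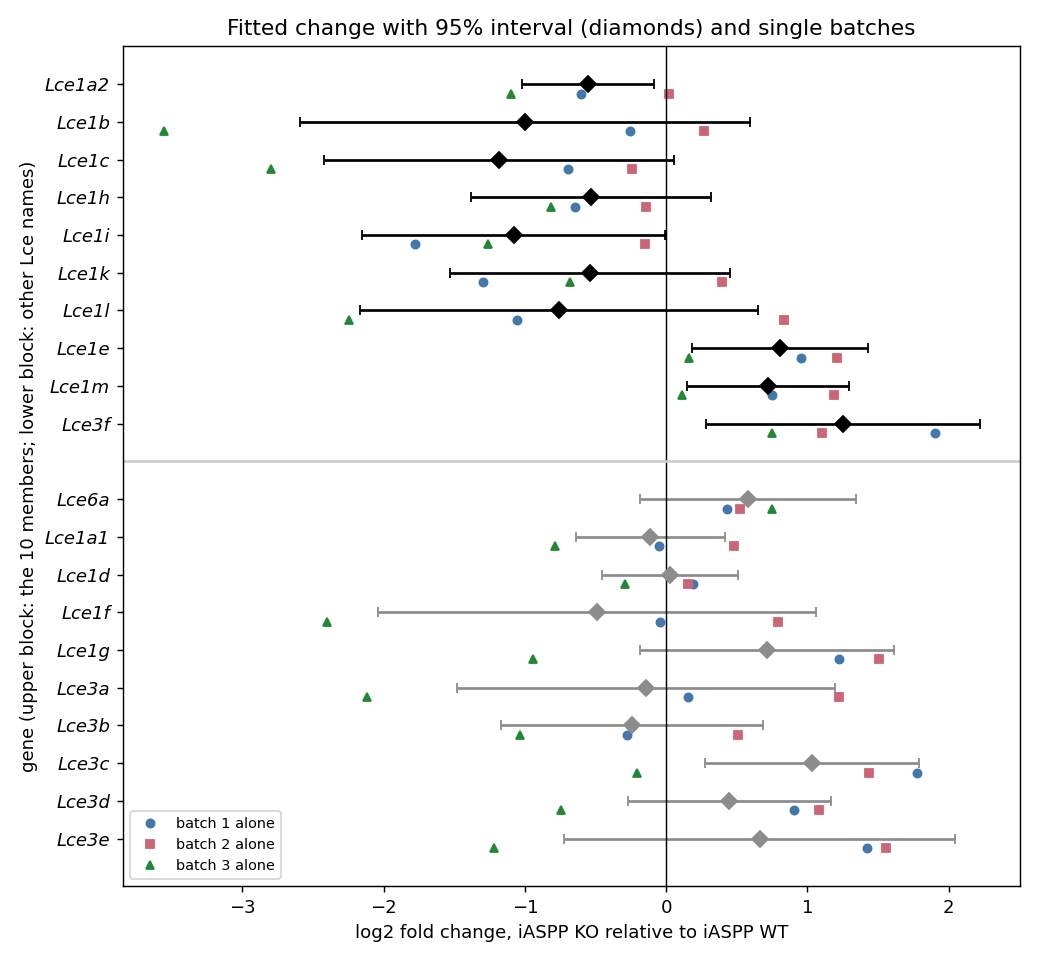
Log2 fold change between iASPP-KO and iASPP-WT cells (horizontal axis, above 0 where iASPP-KO is higher) for the 10 members (upper block, black) and the 10 other tested *Lce* names (lower block, grey), as the fitted value with its 95% interval (diamonds and bars) and in single batches (coloured points). The intervals of *Lce1e*, *Lce1m* and *Lce3f* lie above 0 and those of *Lce1a2* and *Lce1i* below 0, none of them past the adjusted threshold, and the batch 3 points lie leftmost for 8 of the 10 members.

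*Lce1a2* (chr3:92668613-92670315, minus strand), the most abundant member, had lower values in iASPP-KO cells in batches 1 and 3 only. It had 25.5, 29.3 and 12.4 CPM in iASPP-KO batches 1, 2 and 3 (573, 653 and 291 counts) and 38.8, 28.9 and 26.6 CPM in iASPP-WT (828, 705 and 597 counts). The pair of batch 2 was level, with a ratio of 1.01, and the iASPP-KO library of batch 3 lay below all others. The log2 fold change was −0.56 (95% interval −1.02 to −0.09), SE 0.21, which was the smallest SE among the members, and the adjusted p was 0.208 by edgeR's quasi-likelihood F test. Without batch 3 the log2 fold change was −0.29 and without batch 2 it was −0.85.

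*Lce1i* (chr3:92777210-92778899, minus strand) was lower in the iASPP-KO library of each pair. It had 1.11, 5.48 and 0.765 CPM in iASPP-KO batches 1, 2 and 3 (25, 122 and 18 counts) and 4.03, 6.07 and 1.96 CPM in iASPP-WT (86, 148 and 44 counts). The gap was wide in batches 1 and 3, with ratios of 0.292 and 0.416, and narrow in batch 2, at 0.904, and batch 2 was the highest in both groups, so that the groups overlapped. The log2 fold change was −1.08 (95% interval −2.15 to −0.01), SE 0.48, adjusted p = 0.296, and it ran from −0.69 without batch 1 to −1.60 without batch 2, with −0.93 without batch 3. The member with the most similar promoter stretch, *Lce1h* (chr3:92763215-92765065, minus strand), at 90% identity, also had the lower value in iASPP-KO of each pair. It had 3.41 ± 2.89 CPM in iASPP-KO and 4.42 ± 2.92 CPM in iASPP-WT (SD, n = 3). The log2 fold change of *Lce1h* was −0.53, SE 0.38, or −0.39 without batch 3. *Lce1e*, at 87.1% identity to *Lce1i*, had the higher value in iASPP-KO of each pair.

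*Lce1c* (chr3:92679247-92680918, plus strand) had the lowest fitted value of the members, and that value rested largely on 1 library. It had 3.21, 3.73 and 0.425 CPM in iASPP-KO batches 1, 2 and 3 (72, 83 and 10 counts) and 5.25, 4.43 and 3.47 CPM in iASPP-WT (112, 108 and 78 counts). The ratio was 0.144 in batch 3 but 0.618 and 0.844 in batches 1 and 2. The log2 fold change was −1.18 (95% interval −2.42 to 0.06) with all batches and −0.48 without batch 3.

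*Lce1b* (chr3:92655650-92656926, minus strand) showed the same single low library. Its values were 3.21, 4.85 and 0.297 CPM in iASPP-KO batches 1, 2 and 3 (72, 108 and 7 counts) and 3.84, 4.02 and 4.45 CPM in iASPP-WT (82, 98 and 100 counts). The 7 counts of the iASPP-KO library of batch 3 stood against 100 counts in its pair, while batches 1 and 2 gave ratios of 0.838 and 1.20. The log2 fold change was −1.001 (95% interval −2.59 to 0.59), which changed sign to 0.0087 without batch 3, so no direction can be given for this gene.

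*Lce1l* (chr3:92849949-92851286, minus strand) and *Lce1k* (chr3:92806291-92807891, minus strand) had the higher value in iASPP-KO in 1 batch and the lower value in the others. *Lce1l* had 2.18, 6.64 and 0.212 CPM in iASPP-KO batches 1, 2 and 3 and 4.64, 3.69 and 1.34 CPM in iASPP-WT. *Lce1k* had 2.81, 4.62 and 1.74 CPM in iASPP-KO and 7.03, 3.49 and 2.85 CPM in iASPP-WT. In both genes the iASPP-KO library of batch 2 was higher than its pair, by ratios of 1.78 and 1.32. The fitted log2 fold changes were −0.76 (95% interval −2.17 to 0.65) and −0.54 (95% interval −1.53 to 0.45), so neither an increase nor a decrease of these 2 genes could be resolved at this spread. For *Lce1l* the value moved to −0.09 without batch 3 and −1.72 without batch 2. For *Lce1k* it moved to −0.13 without batch 1 and −1.02 without batch 2, and was −0.46 without batch 3.

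Summed over the 9 *Lce1* members, the level did not separate the groups, but the share that *Lce1e* and *Lce1m* had in it did. The sum was 65.6, 106 and 24.0 CPM in iASPP-KO batches 1, 2 and 3 and 82.0, 77.4 and 48.8 CPM in iASPP-WT, with means of 65.3 ± 41.2 and 69.4 ± 18.0 CPM (SD, n = 3). The log2 ratio was −0.32, 0.46 and −1.02 in batches 1, 2 and 3, so its mean of −0.30 was smaller than the SD between batches of 0.74. *Lce1e* and *Lce1m* together supplied 37.4%, 42.6% and 31.2% of the *Lce1* counts in the iASPP-KO libraries and 16.7%, 25.4% and 13.9% in the iASPP-WT libraries, without overlap. This pair was chosen after the values were seen, so the shares of 37.0 ± 5.73% and 18.7 ± 6.02% (SD, n = 3) are a description with no test. *Lce1a2* supplied the most counts of the 9 in every library, from 27.5% in iASPP-KO batch 2 to 54.5% in iASPP-WT batch 3.

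**Figure D3:**
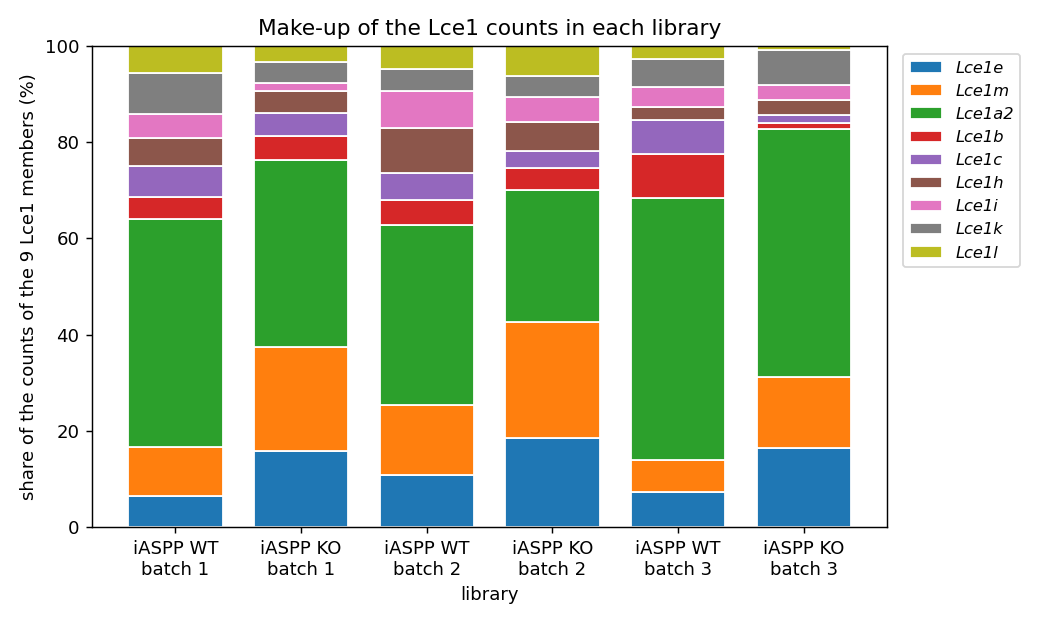
Share of each of the 9 *Lce1* members in their summed counts (vertical axis, %) in the iASPP-WT and iASPP-KO library of each batch. The stacked lower blocks of *Lce1e* and *Lce1m* reach 31.2% to 42.6% in iASPP-KO and 13.9% to 25.4% in iASPP-WT.

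Set against the *Lce1* sum, *Lce3f* was higher in iASPP-KO in every pair. Its log2 ratio exceeded that of the summed *Lce1* members by 2.49, 0.66 and 1.80 in batches 1, 2 and 3, with a mean of 1.65 and an SD of 0.92. The counts of *Lce3f* came to 2.24%, 8.86% and 15.6% of the *Lce1* counts in iASPP-KO batches 1, 2 and 3 and to 0.4%, 5.61% and 4.47% in iASPP-WT. The groups overlapped on this scale because of batch 1, where *Lce3f* was lowest. With 3 pairs, an exact two-sided sign-flip permutation test cannot give a p below 0.25, so none was run. Since *Lce3f* is the only *Lce3* member, this sets 1 gene against 9.

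The *Lce* names outside the members gave a similar mixture. Of the 11, 10 were tested and *Lce1j* was not, with 0 to 21 counts per library. By edgeR's quasi-likelihood F test and Benjamini-Hochberg adjustment, 0 of the 10 were called, 1 had an unadjusted p under 0.05 and 6 had a log2 fold change above 0. *Lce3c* had the highest value of them (log2 fold change 1.03, SE 0.34, adjusted p = 0.147), with a ratio of 3.42 and 2.71 in batches 1 and 2 and 0.867 in batch 3. *Lce3d* and *Lce3e* had log2 fold changes of 0.45 (SE 0.32) and 0.66 (SE 0.62). *Lce3a* and *Lce3b* had −0.15 (SE 0.60) and −0.24 (SE 0.42), so whether they differed in direction from *Lce3f* was not resolved. In batch 3, *Lce3a*, *Lce3b*, *Lce3d* and *Lce3e* were lower in iASPP-KO, with ratios of 0.23, 0.49, 0.60 and 0.43. In batches 1 and 2 they were higher in iASPP-KO, except *Lce3b* in batch 1, at 0.82. The fitted values of *Lce1g* (0.71) and *Lce1f* (−0.49) lay on opposite sides of 0, with *Lce1d* at 0.03, *Lce1a1* at −0.11 and *Lce6a* at 0.58.

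Along the chromosome, the members with values above 0 and below 0 were interleaved. *Lce1e* lay between *Lce1d* and *Lce1f*, with *Lce1c* and *Lce1h* on either side further out. Of the 3 tested genes inside the cluster that are no *Lce* genes, *Crct1*, a small cysteine-rich gene between *Lce3f* and *Lce1m*, was significantly higher in iASPP-KO cells (log2 fold change 1.46, SE 0.15, adjusted p = 0.00119, edgeR's quasi-likelihood F test, Benjamini-Hochberg adjusted). It had 284, 610 and 185 CPM in iASPP-KO batches 1, 2 and 3 and 97.9, 176 and 90.1 CPM in iASPP-WT, with no overlap between the groups. *Kprp*, a keratinocyte proline-rich protein gene, had a log2 fold change of −0.16 (adjusted p = 0.806) and *2310050C09Rik* of −1.50 (adjusted p = 0.14). The groups did not overlap for *2310050C09Rik* either, with 4.81, 5.43 and 0.807 CPM in iASPP-KO batches 1, 2 and 3. Its iASPP-WT values were 9.56, 7.88 and 8.46 CPM. The nearest tested genes beyond the cluster were *2210017I01Rik* on one side, at 0.22 (adjusted p = 0.806), and *Crnn*, the cornulin gene, on the other, at 1.28 (adjusted p = 0.203). The iASPP-KO libraries all lay above the iASPP-WT libraries for *Crnn*.

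**Figure D4:**
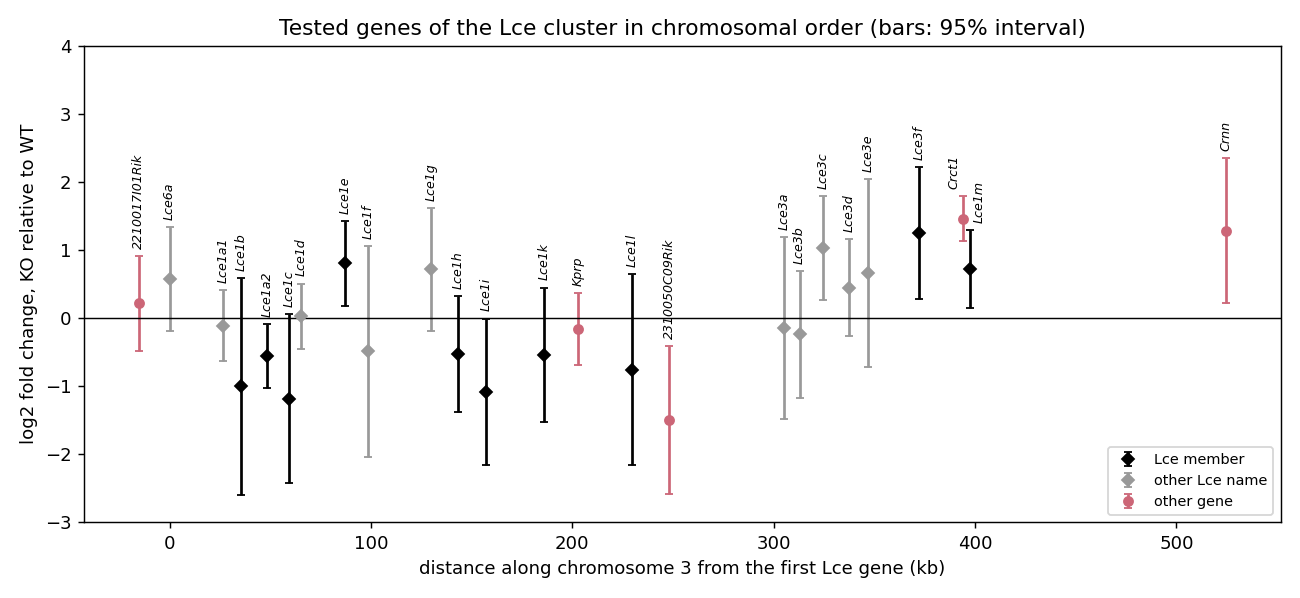
Log2 fold change between iASPP-KO and iASPP-WT cells with its 95% interval (vertical axis) for each tested gene of the *Lce* cluster and the nearest tested gene on either side, by distance along chromosome 3 from the first *Lce* gene in kb (horizontal axis). Black marks *Lce* members, grey other *Lce* names and red other genes. Values above and below 0 are interleaved along the cluster, and the narrow interval above 0 near 394 kb is that of *Crct1*.

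The other gene groups of cornification were read in the same comparison. Of the 12 tested of 15 *Sprr* genes, which encode small proline-rich envelope proteins, 7 were significantly higher in iASPP-KO cells and 0 lower by edgeR's quasi-likelihood F test and Benjamini-Hochberg adjustment, led by *Sprr2e*, *Sprr2h* and *Sprr2d* at log2 fold changes of 1.91, 1.71 and 1.58. Their median of 1.26 lay above 0, where that of the 10 *Lce* members lay below it, at −0.55. The median of the other 10 tested *Lce* names was 0.24, so the contrast holds for the members and not for all *Lce* names. Of 8 tested among 10 other envelope genes of the complex, *Prr9* (1.95), *Crct1* and *Pglyrp3* (0.53) were higher and 0 lower. Among the 14 genes of the envelope scaffold and its crosslinking, 5 were higher and 0 lower, including the transglutaminase genes *Tgm3* (1.45) and *Tgm1* (0.57), whose products crosslink the envelope, and *Csta1* (1.20), a cystatin gene.

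The groups with structural genes of the suprabasal layers were divided between the directions. Of 7 *S100*-fused genes 1 was higher (*Tchhl1*, a trichohyalin-like gene, 1.86) and 2 were lower (*Flg2*, −2.16, and *Flg*, the filaggrin gene, −0.89). Of 13 tested of 14 spinous-layer genes 1 was higher (*Sbsn*, suprabasin, 0.67) and 1 lower (*Krt10*, the keratin of suprabasal cells, −1.31). Of 13 granular-layer genes 4 were higher, among them *Cdsn* (1.03), the corneodesmosin gene, and 2 were lower, *Flg* and *Flg2*. Of 12 tested of 13 *S100* genes 3 were higher and 0 lower (*S100a8*, 1.98, *S100a7a*, 1.95, and *S100a9*, 1.93), which encode small calcium-binding proteins.

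Among the regulators of epidermal differentiation, *Hopx* (1.12) and *Cebpb* (0.54) were higher. Of the 7 AP1 subunit genes, *Junb* was higher (0.50, adjusted p = 0.0296, edgeR's quasi-likelihood F test, Benjamini-Hochberg adjusted). Of the cell type markers, 0 of 10 keratinocyte, 0 of 7 melanocyte and 0 of 4 tested of 5 endothelial genes were called. The melanocyte genes summed to 367 to 1126 CPM and the 5 endothelial genes to 3.87 to 21.5 CPM. Of 8 fibroblast genes, *Col3a1* (−0.87) and *Col1a2* (−0.55), both collagen genes, were lower, and of 5 tested of 8 leukocyte genes *Csf1r* (1.11), a macrophage receptor, was higher. The leukocyte genes, of which *Cd3e* was at 0 in every library, summed to 65.1 to 79.7 CPM in iASPP-KO and 43.5 to 63.6 CPM in iASPP-WT. The part of these cell types in the *Lce* values was not tested.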

How the data were processed

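RNA-seq was performed on 6 libraries of primary mouse keratinocytes, 3 of them iASPP KO, given tamoxifen, and 3 iASPP WT, grouped and paired by batch as labelled. Ribosomal RNA was depleted and single reads of 42 bases were sequenced. The authors trimmed reads with cutadapt 2.10, aligned them to GRCm38 with STAR and deposited raw counts per gene name from featureCounts 2.0.0 (GENCODE vM25, exons, reverse strand, uniquely aligned reads). The deposited table of the authors' own comparison, with fold changes and p-values, was not used here. The p63 ChIP-seq was not analysed here.

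The test was that of edgeR 4.0.16, run in R 4.3.3 (TMM, filterByExpr with the 2 conditions, glmQLFit and glmQLFTest with batch and condition, Benjamini-Hochberg adjustment over 14916 genes, threshold 0.05) and with DESeq2 1.42.0 as an alternative. The SE is the absolute log2 fold change divided by the square root of F, and the 95% interval uses its degrees of freedom. Within-batch log2 ratios use a prior count of 2. Batch numbers were taken to pair the libraries because deviations from the group means over 12755 genes correlated at 0.427, 0.518 and 0.674 between libraries of the same batch and at −0.540 to 0.236 otherwise. P-values measure the spread between these cultures. Poisson intervals and floors from the depth of 20202517 to 25157117 counts per library cover counting error alone.

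The *Lce* members and the gene lists were chosen with earlier results of these data known. Every member was named, with the other *Lce* names, *Ppp1r13l*, up to 3 called genes of largest change per list, the nearest tested neighbours of the cluster and the 5 genes of most similar pattern; the genes inside the cluster were added after their values were seen. Promoter sequences are from RefSeq (GRCm38.p6), in which all 10 members matched. Read-length windows and coding parts were taken from GENCODE vM21 on GRCm38, whose gene ends equal those of the count table for the 21 *Lce* names. Scripts were tested on simulated counts. A called gene among the differentiation regulators is not reported here. Figures were drawn with Python 3.11.15 and matplotlib 3.10.9.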

Additional observations from a re-analysis of the deposited data

How the results depend on the processing

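The alternatives were DESeq2, its size factors, upper-quartile scaling, robust dispersion, a filter of 1 count in all, a filter of 10 counts per library, no batch term, and each batch left out. The number of *Lce* members called was 0 under all of them except without batch 3, and ran from 0 to 3 as batches were left out. *Lce1b* ran from −1.85 without batch 2 to 0.0087 without batch 3 on the log2 scale, and no other member changed sign. Over all genes, 614 were called, 1115 with at least 1 count and 291 to 1455 as batches were left out, and the causes were not tested. Without the replicate block by batch, 0 genes were called by edgeR (360 higher and 331 lower at an unadjusted p under 0.05, against 872 called by DESeq2 with the block), and *Ppp1r13l* fell by 1.38 on the log2 scale with an adjusted p of 0.973. With at least 10 counts in every library, 7 members could be tested. The mean log2 ratio of the summed *Lce1* members ran from −0.50 to −0.12 under other scalings and member sets and from −0.67 to 0.07 without a batch, so its direction depends on the batches. The excess of *Lce3f* over it ran from 1.48 to 1.75 and from 1.23 to 2.14. The members' counts ran from 5 to 828 per library, with exact 95% Poisson intervals of 1.62 to 11.7 and of 773 to 886 counts at these ends.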

Other observations

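The genes outside the *Lce* family whose log2 CPM followed the summed *Lce1* members most closely over the 6 libraries were *Kctd4* (r = 0.99), *Gpld1* (0.99), *Lats2* (0.99), *Gm37745* (0.99) and *Gm37983* (0.99). For *Lce3f* they were *Gm20604* (r = 0.99), *Serpina11* (0.98), *Rbbp8nl* (0.97), *Arf4* (0.97) and *Dph3* (0.97). These are the highest of 14916 correlations over libraries that share batches, and are given as a description. Among the members, the log2 CPM of *Lce1a2* and *Lce1c* correlated at 0.98 and that of *Lce1b* and *Lce1c* at 0.97, while *Lce3f* ran against *Lce1k* (−0.41) and *Lce1a2* (−0.39).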
